A study of Mus musculus with 6 samples.

Results

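Heart muscle RNA was followed in dissected mouse aortic roots through 35 genes of the cardiomyocyte: sarcomere proteins, proteins of calcium cycling and energy supply, and the natriuretic peptides with the protease Corin. The genes were chosen by name, as a set of cardiomyocyte markers, but with earlier results of these data known. For that reason they were not tested as a set. Each was read by the brightest probe set that the platform annotation gives to that gene alone. This left 33 genes, from 59 such probe sets, among 18193 genes on the array. Xirp2 and Hcn4 had no probe set of their own and were not analysed here. Background was the brightest of 27 control probe sets for Bacillus RNA, a signal of 161.8. Of the 33 genes, 31 had a signal above it on all 6 arrays, and Tnni1 and Nkx2-5 were below it on every array. Of all genes, 13322 had a mean above it.

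The animals were mice on the C57BL/6J albino background, 6 to 6.5 weeks old, either homozygous for a klotho mutation or homozygous wild type. An aortic root here means the valve leaflets with their annulus and some wall of the ascending aorta, cut out by hand. RNA of 3 mice was pooled for each array, giving 3 arrays and 9 mice per genotype. The pools are the replicates, so every SD, SE and p-value reflects the spread between pools and not between single mice. No cell type was isolated, and in such bulk tissue fewer cells of a type and less RNA per cell cannot be told apart. Klotho itself (Kl) read 138.3 to 217.4 in klotho-deficient and 166.7 to 202.1 in wild-type arrays, near background in both, so it does not check the labels. Of the Y-linked genes, 3 were measured, and each had a signal over background on klotho-deficient array 1 and the 3 wild-type arrays (284.6 to 5199.3). They were below it on klotho-deficient arrays 2 and 3 (5.8 to 104.4). The labels used here give no sex, and by these genes RNA of male mice was detected in 1 of 3 klotho-deficient and in 3 of 3 wild-type pools. Sex and genotype therefore cannot be fully told apart in any difference given here.

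The aortic valve is hinged on a fibrous annulus that borders ventricular muscle and lies against the atria, so a root cut out by hand can carry heart muscle at its base. In the sarcomere, myosin thick filaments pull on actin thin filaments when calcium binds troponin, and Z-discs anchor the thin filaments. Atrial and ventricular muscle use different myosin light chains. Atrial natriuretic peptide (Nppa) is made mainly by atrial muscle and brain natriuretic peptide (Nppb) by both. In the mouse, ventricles switch around birth from beta-myosin heavy chain (Myh7) to alpha-myosin heavy chain (Myh6). Nppa, Nppb, Myh7 and Ankrd1 are classic genes of heart growth and load.

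Promoters are shown for 4 genes on which the results turn: the atrial light chain Myl7, the hormone Nppa, the heavy chain Myh7 and the protease Corin. Each run is the 250 bases before the annotated start in RefSeq on GRCm38.p6, read 5′ to 3′ on the gene's own strand, with searched motifs in capitals. Where a gene has several annotated starts, the one furthest downstream was used. Myl7 is on the minus strand at chr11:5898783-5899032, and Nppa on the plus strand at chr4:148000472-148000721. Myh7 and Corin are on the minus strand, at chr14:54994550-54994799 and chr5:72504541-72504790.
Myl7: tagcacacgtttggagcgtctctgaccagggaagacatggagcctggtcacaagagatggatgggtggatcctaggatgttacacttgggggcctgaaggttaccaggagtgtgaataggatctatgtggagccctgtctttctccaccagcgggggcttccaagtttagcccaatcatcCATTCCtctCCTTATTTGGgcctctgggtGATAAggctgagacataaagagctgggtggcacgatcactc
Nppa: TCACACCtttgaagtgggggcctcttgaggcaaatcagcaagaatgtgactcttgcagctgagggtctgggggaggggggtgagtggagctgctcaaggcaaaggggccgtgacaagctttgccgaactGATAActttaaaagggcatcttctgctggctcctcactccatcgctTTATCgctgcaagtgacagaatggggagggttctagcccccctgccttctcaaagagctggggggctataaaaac
Myh7: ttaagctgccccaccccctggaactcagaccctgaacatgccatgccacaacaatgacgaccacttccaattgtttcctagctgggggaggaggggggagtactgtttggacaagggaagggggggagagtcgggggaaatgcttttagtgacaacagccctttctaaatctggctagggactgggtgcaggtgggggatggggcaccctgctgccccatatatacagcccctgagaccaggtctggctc
Corin: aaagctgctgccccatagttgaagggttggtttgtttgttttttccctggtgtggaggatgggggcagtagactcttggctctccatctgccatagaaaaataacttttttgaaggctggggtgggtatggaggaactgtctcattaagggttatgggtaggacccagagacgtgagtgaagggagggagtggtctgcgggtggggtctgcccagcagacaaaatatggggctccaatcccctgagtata
The motifs, searched on both strands, were the MCAT element (CATTCC), the GATA motif (GATAA), the T-box motif (TCACACC) and the CArG box of serum response factor, all known from heart muscle promoters. In Myl7 the MCAT element lay at -70 to -65, the CArG box at -61 to -52 and the GATA motif at -41 to -37 from the start. Nppa held a T-box match at -250 to -244 and GATA matches at -121 to -117 and -75 to -71. The Myh7 and Corin windows shown held none of the 4, but a window of another Myh7 start held an MCAT element. Over the 39 windows of the 30 listed genes that matched the RefSeq promoter table, an MCAT element was in 8, against 12.6% of all 32851 windows. A GATA motif was in 11, against 22.6%. A CArG box was in 4 (Actc1, Myl3, Myl7 and Myom1), against 1.47%, and a T-box motif in 4 (Ankrd1, Nppa, Tnni3 and Xirp2), against 3.33%. These matches are descriptions of letters and not evidence of binding. No window was found for Sln, Tcap, Myom2, Xirp1 and Atp2a2.

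Heart muscle RNA varied more between pools within a genotype than between the genotypes. By limma, none of the 33 measured genes passed a Benjamini-Hochberg adjusted p of 0.05, where 0 of all 18193 genes (0%) did. The lowest adjusted p among them was 0.67. Klotho-deficient arrays were higher in 16 and lower in 17, with a median difference of -0.01 on the log2 scale, where the median over all genes was 0.00. In 20 of the 33 the difference was smaller than its own SE. An unadjusted p under 0.05 was reached by 3 genes, Tcap, Corin and Nkx2-5, where 6.41% of all genes reached it. The arrays of the genotypes did not overlap in 2 genes, Tcap and Corin (6.06% of 33), where 13.5% of all genes did not. Both were higher in klotho-deficient roots, a direction in which 6.63% of all genes did not overlap. These shares do not set the 33 genes above the background.

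**Figure D1:**
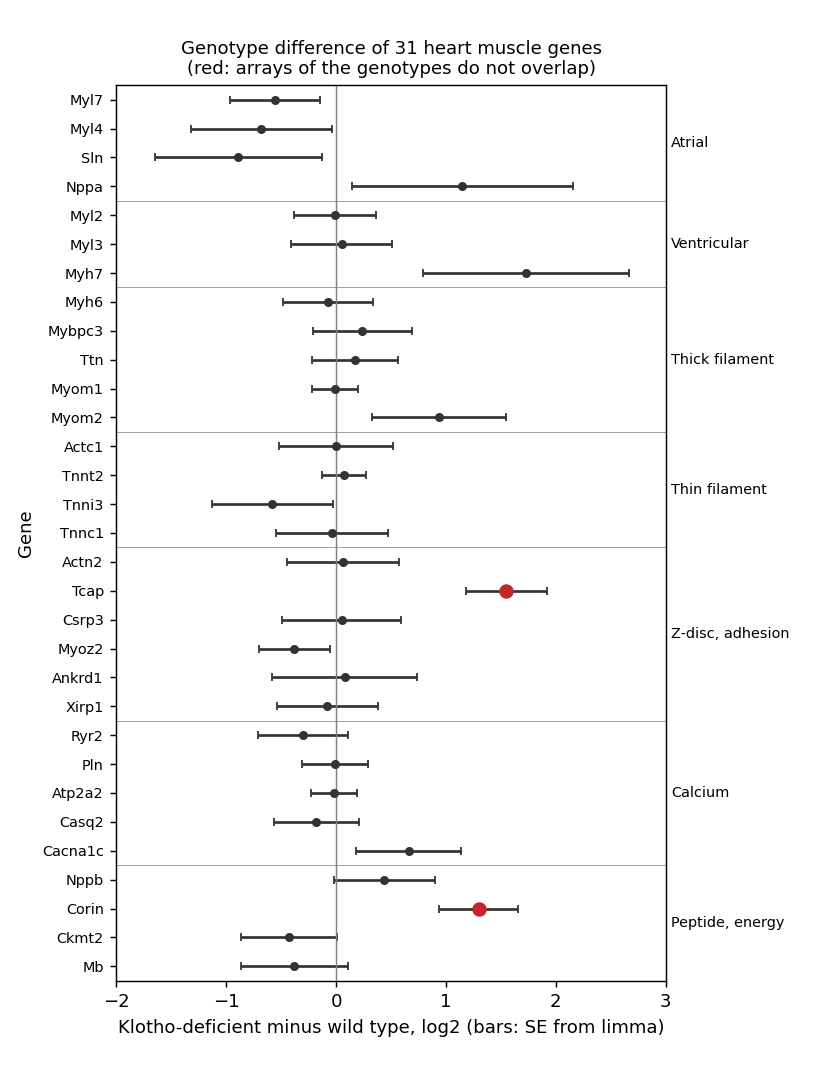
Difference of klotho-deficient minus wild-type arrays (log2, horizontal axis) for the 31 genes above background, grouped by role; points are limma estimates and bars their SE, n = 3 arrays per genotype. Differences run from -0.89 for Sln to 1.73 for Myh7, and red marks Tcap and Corin, whose genotypes do not overlap.

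The pattern that most of these genes shared was between arrays. Klotho-deficient array 1 and wild-type array 1 were the lowest pair of arrays in 18 of the 31 genes above background (58.1%), against 937 of the 13322 genes above background (7.03%). The 18 were Actc1, Tnni3, Tnnc1, Myl2, Myl3, Myl4, Myl7, Nppa, Nppb, Sln, Mybpc3, Ckmt2, Csrp3, Casq2, Actn2, Myom2, Ankrd1 and Mb. Their highest array was 2.29 to 16.2 times their lowest, with a median of 3.04. As a mean over the 18 of log2 signal minus each gene's own mean, the klotho-deficient arrays stood at -0.83, 0.61 and 0.17 and the wild-type arrays at -0.82, 0.53 and 0.36, for arrays 1, 2 and 3. Since the 18 were picked for being low on array 1 of both genotypes, this likeness of the genotypes is built in. The other 13 genes did not share it: Myh6, Myh7, Tnnt2, Ryr2, Pln, Ttn, Tcap, Myoz2, Myom1, Xirp1, Atp2a2, Cacna1c and Corin. These 13 stood at 0.03, 0.33 and 0.17 in klotho-deficient and -0.38, -0.12 and -0.02 in wild-type arrays. Their genotype means differed by 0.35, but their median difference was -0.01, with 6 genes higher and 7 lower. The largest differences among them were those of Myh7 (1.73), Tcap (1.55) and Corin (1.30). Myh7 and Myoz2 were also lowest on array 1 of each genotype. For Myh7, however, wild-type array 2 lay just under klotho-deficient array 1, and for Myoz2 klotho-deficient array 3 lay just under wild-type array 1. Over all 31 genes the arrays stood at -0.47, 0.49 and 0.17 against -0.64, 0.26 and 0.20, a difference of 0.12.

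**Figure D2:**
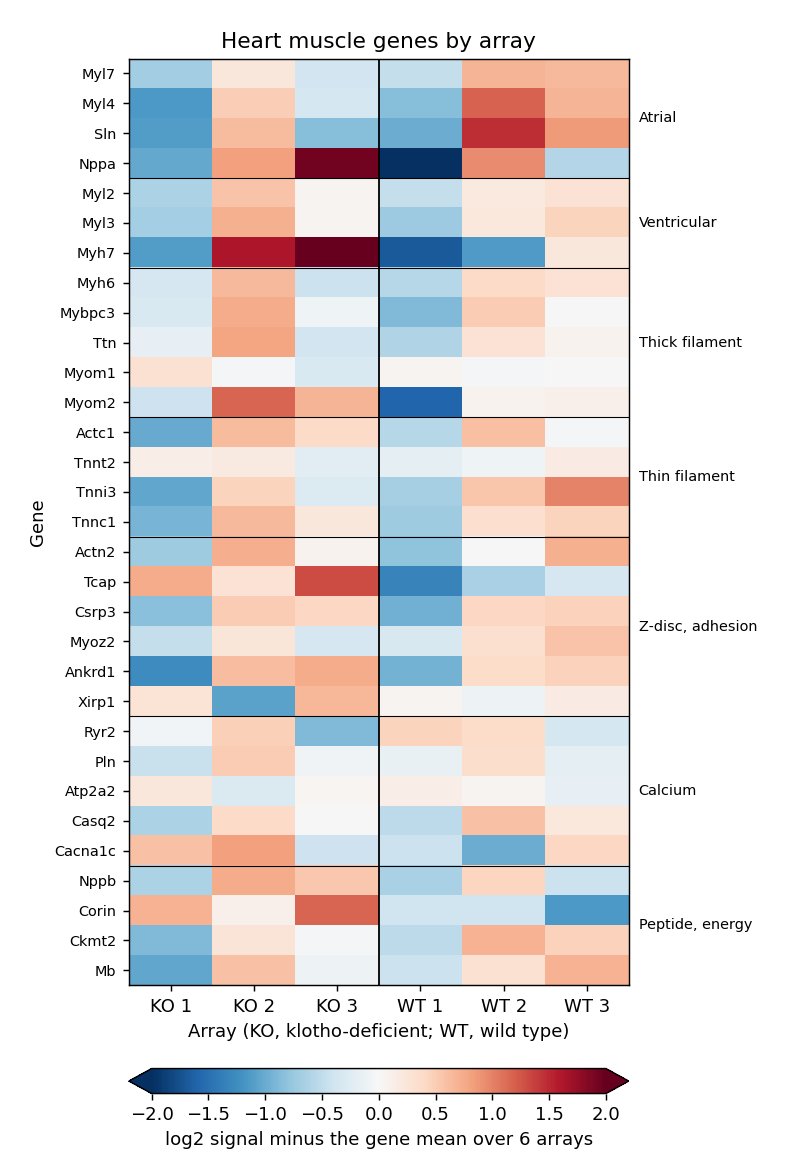
Log2 signal minus the gene's mean over 6 arrays (colour; values beyond 2 on either side take the end colour) for 31 heart muscle genes in rows and the 6 arrays in columns, KO for klotho-deficient and WT for wild type. The columns of both arrays numbered 1 are blue for most genes, and Myh7 is dark red on klotho-deficient arrays 2 and 3.

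Values below are linear signals, given in the order of arrays 1, 2 and 3 of the klotho-deficient and then of the wild-type mice, and each difference is a log2 value, positive where klotho-deficient arrays were higher, with the SE and adjusted p of limma and n = 3 arrays per genotype. Signals of different genes come from different probes and are not compared with each other.

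Atrial genes were on the low side in klotho-deficient roots with the exception of Nppa, and none passed the test. Myl7, the atrial regulatory light chain, read 1638.7, 3094.4 and 2036.9 against 1896.4, 4253.7 and 4127.6. Klotho-deficient arrays averaged 2257 ± 752 (SD, n = 3) and wild-type arrays 3426 ± 1330, a difference of -0.56 ± 0.41 (adjusted p = 0.836), and wild-type array 1 lay inside the klotho-deficient range. Myl4, the atrial essential light chain, read 1726.5, 5371.8 and 2990.1 against 2129.0, 8674.5 and 6150.4. Its difference was -0.68 ± 0.64 (adjusted p = 0.876), and the genotypes overlapped on the low array 1 of each. Sln encodes sarcolipin, the atrial inhibitor of the calcium pump. It read 256.6, 869.3 and 309.1 against 279.1, 1560.1 and 1006.8. The difference was -0.89 ± 0.76 (adjusted p = 0.86), with the highest value on wild-type array 2 and 3 arrays near the bottom of the range. Over these 3 and Nppa, the median difference was -0.62. From a separate list of other atrial genes, all 4 were lower and none was called by limma or free of overlap (median -0.29). They were the potassium channel subunits Kcnj3 (-0.81 ± 0.55) and Kcnj5 (-0.24 ± 0.31), the connexin Gja5 (-0.21 ± 0.44), and Bmp10, which was below background on every array.

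Nppa had a higher mean in klotho-deficient roots, with wide overlap. It read 1043.6, 3759.8 and 8133.2 in klotho-deficient and 501.2, 4102.8 and 1421.0 in wild-type arrays. The means were 4312 ± 3580 and 2008 ± 1870 (SD, n = 3), and the difference was 1.15 ± 1.01 (adjusted p = 0.862). Its range over the 6 arrays was 16.2-fold, the widest of the 31 genes, and the wild-type array 2 lay above 2 of the 3 klotho-deficient arrays. Klotho-deficient array 3 was the highest for Nppa while it was the third lowest for Sln, Myl4 and Myl7.

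Ventricular light chains did not separate the genotypes. Myl2, the ventricular regulatory light chain, read 8168.6, 18673.8 and 13056.4 against 9070.7, 14487.8 and 15347.2. The means were 13300 ± 5260 and 12970 ± 3400 (SD, n = 3) and the difference -0.01 ± 0.37 (adjusted p = 0.998). Array 1 was the lowest in each genotype. Myl3, the ventricular essential light chain, read 5039.6, 13187.0 and 8381.3 against 4898.0, 9329.7 and 11081.9, with a difference of 0.05 ± 0.46 (adjusted p = 0.991). Its other 2 probe sets above background gave 0.11 and 0.16. In a list of 2 further ventricular genes, the transcription factor Irx4 read 126.6, 224.8 and 212.7 against 113.1, 123.3 and 94.1, below background in every wild-type array, and Hey2 differed by 0.12 ± 0.27. Neither was called.

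Myh7 had the largest difference of the 31 genes and also one of the widest spreads. It read 1658.6, 11045.1 and 15119.8 in klotho-deficient and 1113.0, 1639.5 and 4194.5 in wild-type arrays. The means were 9274 ± 6900 and 2316 ± 1650 (SD, n = 3), and the difference was 1.73 ± 0.94 (adjusted p = 0.809). Klotho-deficient arrays 2 and 3 lay above all wild-type arrays, and klotho-deficient array 1 lay among them. Myh6, the adult heavy chain, read 9795.7, 19486.7 and 9207.2 against 8286.3, 16202.5 and 15169.4, with a difference of -0.07 ± 0.41 (adjusted p = 0.986). Its second probe set gave -0.10. The log2 ratio of Myh7 to Myh6 on the same array, set to a wild-type mean of 0, was 0.12, 1.87 and 3.40 in klotho-deficient and -0.21, -0.62 and 0.83 in wild-type arrays, so klotho-deficient array 1 lay within the wild-type range. A pair of probe sets that the annotation gives to Myh6 and Myh7 together differed by 0.18 and -0.12.

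The arrays that were high for Myh7 also differed from the rest in other ways. Klotho-deficient arrays 2 and 3 were the arrays with no Y-linked signal above background, and they were the highest in the mean over a list of heart growth and stress genes. In that list 8 of 9 measured genes were higher and 1 lower in klotho-deficient roots, with a median difference of 0.44 and 0 called. Of the 8, Postn (0.04 ± 0.20), Fhl1 (0.08 ± 0.18), Ankrd1 (0.08 ± 0.66) and Nppb (0.44 ± 0.46) differed by less than their SE. Rcan1 was the lower gene (-0.34 ± 0.28). The list includes Myh7, Nppb and Ankrd1 themselves. Its arrays stood at -0.40, 0.79 and 0.89 against -0.98, -0.37 and 0.06, as mean log2 signal minus each gene's mean. Acta1, skeletal alpha-actin, read 235.4, 621.0 and 511.4 against 24.6, 133.6 and 333.9 (2.03 ± 0.97, adjusted p = 0.788). On wild-type arrays 1 and 2 Acta1 was below background, so the size of its difference is uncertain. The protease inhibitors Timp1 (1.77 ± 0.54, adjusted p = 0.692) and Serpina3n (1.91 ± 0.67, adjusted p = 0.75) were also higher. Cartilage genes stood at -0.72, 0.89 and 1.73 against -0.88, -0.28 and -0.74, led by Cnmd (1.32 ± 0.47) and Col2a1 (2.32 ± 1.09), with 5 of 6 higher and 0 called. The cartilage signal summed over the 6 genes was 3789.1 to 19563.9 in klotho-deficient and 3735.0 to 5509.3 in wild-type arrays. The part of the cartilage signal in the Myh7 and Nppa values was not tested. With a term in limma for the 2 arrays without Y-linked signal, the genotype difference rests on klotho-deficient array 1 alone against the 3 wild-type arrays. On that 1 array the values were -0.25 for Myh7, -0.45 for Nppa, 1.52 for Tcap and 1.34 for Corin, which is no test of sex.

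**Figure D3:**
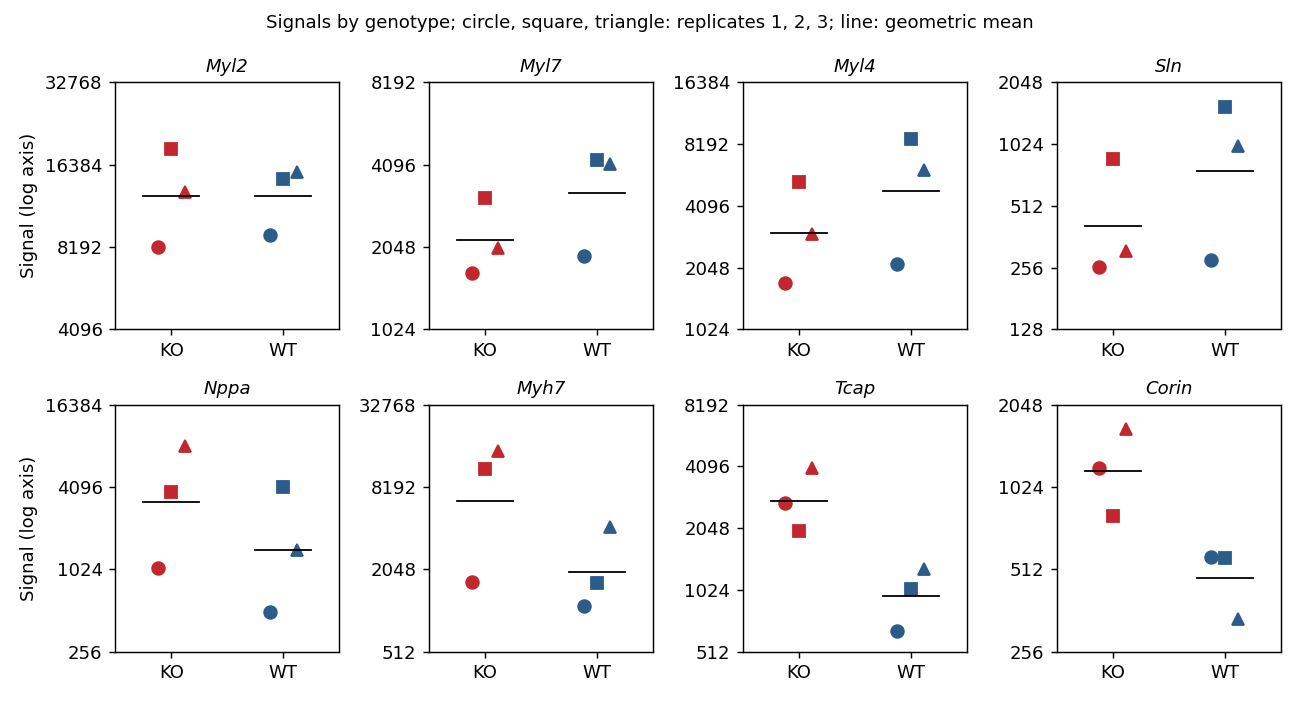
Signal on a log axis for 8 genes, each panel with its own range, KO for klotho-deficient and WT for wild type; circle, square and triangle are replicates 1, 2 and 3 and the line is the geometric mean. Every klotho-deficient array is above every wild-type array for Tcap and Corin, and the circles lie lowest in both genotypes for Myl2, Myl4, Myl7, Sln and Nppa.

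Tcap had the clearest separation of the sarcomere genes. Tcap encodes telethonin, which caps titin at the Z-disc in heart and skeletal muscle. It read 2729.7, 1983.3 and 4009.7 in klotho-deficient and 646.9, 1037.8 and 1289.6 in wild-type arrays. The means were 2908 ± 1020 and 991.4 ± 324 (SD, n = 3), a difference of 1.55 ± 0.37 (unadjusted p = 0.00554, adjusted p = 0.67 in limma). Every klotho-deficient array was above every wild-type array, and array 1 was not low for Tcap in the klotho-deficient group. The difference ran from 1.27 to 1.8 over the 17 alternative settings, with adjusted p of 0.262 to 0.975.

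The other Z-disc and intercalated disc genes did not separate. Actn2, the Z-disc alpha-actinin, read 621.9, 1685.0 and 1071.6 against 585.8, 1019.9 and 1667.6 (0.06 ± 0.51). Csrp3, muscle LIM protein, read 2412.1, 6099.3 and 5762.8 against 2223.5, 5727.9 and 5949.4 (0.05 ± 0.54). In both genes array 1 was the lowest of each genotype and the upper arrays overlapped. Ankrd1, a titin-binding protein induced by load, read 900.4, 3297.7 and 3602.0 against 1118.4, 2753.7 and 2957.0 (0.08 ± 0.66). Myoz2, a Z-disc binding partner of calcineurin, read 1733.7, 2838.0 and 1901.5 against 1918.1, 3006.1 and 3571.1 (-0.38 ± 0.32). Xirp1, an actin-binding protein of the intercalated disc, read 1573.9, 623.2 and 2073.5 against 1350.4, 1220.0 and 1461.1 (-0.08 ± 0.46). Xirp1 was lowest on klotho-deficient array 2, an array that was high for most of the others.

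Thick filament partners were near 0 apart from Myom2. Myom1 and Myom2 are M-band proteins that tie thick filaments together. Myom2 read 3660.0, 10918.2 and 7824.7 against 1639.3, 5125.7 and 5239.3, with means of 7468 ± 3640 and 4001 ± 2050 (SD, n = 3). Its difference was 0.94 ± 0.61 (adjusted p = 0.825), and its other 2 probe sets above background gave 1.13 and 1.47, also higher in klotho-deficient roots. Klotho-deficient array 1 overlapped the wild-type arrays. Myom1 read 24520.7, 19480.7 and 16032.6 against 20605.9, 19470.3 and 19646.1 (-0.01 ± 0.21). Titin (Ttn), the elastic filament of the sarcomere, read 2644.8, 5126.5 and 2277.2 against 1953.2, 3611.3 and 3102.3 (0.17 ± 0.39). Mybpc3, the heart isoform of myosin-binding protein C, read 639.9, 1324.6 and 746.8 against 430.0, 1126.0 and 793.0 (0.24 ± 0.45). Ttn and Mybpc3 were highest on klotho-deficient array 2.

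Thin filament genes overlapped between genotypes, and none was called. Actc1, heart alpha-actin, read 3510.8, 10951.5 and 9166.7 against 4758.7, 10770.1 and 6866.6 (0.00 ± 0.52). Tnnc1, the calcium-binding troponin C of heart and slow muscle, read 3507.0, 10573.3 and 7830.6 against 4099.2, 8444.3 and 9129.0 (-0.04 ± 0.51). Both were lowest on array 1 of each genotype. Tnni3, heart troponin I, read 2018.3, 5669.2 and 3433.6 against 2624.3, 6082.4 and 8261.7, with a difference of -0.58 ± 0.55 (adjusted p = 0.876) and overlapping genotypes. Tnnt2, heart troponin T, read 44989.6, 46457.4 and 34970.4 against 36231.3, 38376.3 and 45752.7 (0.07 ± 0.20), a range of only 1.33-fold that did not follow the low arrays. Further Tnnt2 probe sets above background gave 0.10 ± 0.23 and 0.56 ± 0.31, with overlapping genotypes. Tnni1, the troponin I of slow muscle and the fetal heart, stayed between 14.9 and 97.9, and no fold is given.

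Calcium and excitation genes overlapped between genotypes in each of the 6 probe sets used. The ryanodine receptor Ryr2, which releases stored calcium, read 1006.2, 1466.4 and 571.3 against 1422.3, 1352.8 and 821.9 (-0.30 ± 0.41), lowest on klotho-deficient array 3. The pump Atp2a2, which returns calcium to the store, read 20095.3, 14126.5 and 17779.7 against 18895.1, 17891.1 and 15429.7 (-0.02 ± 0.21). Of the 10 genes with several probe sets above background, Atp2a2 was the 1 whose probe sets gave both signs. Phospholamban (Pln), the inhibitor of that pump, read 7157.9, 13797.5 and 9228.0 against 8759.7, 12383.0 and 8558.5 (-0.01 ± 0.30). Casq2, the calcium buffer of the store, read 904.1, 1844.6 and 1398.7 against 975.6, 2109.0 and 1631.8 (-0.18 ± 0.39), lowest on both arrays numbered 1. Cacna1c, the pore of the L-type calcium channel, which smooth muscle also uses, read 2400.7, 2835.0 and 1203.8 against 1192.6, 805.5 and 2143.6 (0.66 ± 0.48, adjusted p = 0.835). A second Cacna1c probe set read 1936.2, 1491.9 and 1708.5 against 1366.7, 1133.0 and 829.0 (0.65 ± 0.25), and there the genotypes did not overlap.

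Corin separated the genotypes, and the peptides it acts on did not. Corin is the membrane protease of heart muscle that cleaves the Nppa precursor to the active hormone. It read 1206.8, 802.4 and 1675.8 in klotho-deficient and 569.5, 565.4 and 336.7 in wild-type arrays. The means were 1228 ± 437 and 490.5 ± 133 (SD, n = 3), a difference of 1.30 ± 0.36 (unadjusted p = 0.0104, adjusted p = 0.67 in limma). Over the 17 alternative settings the difference was 1.05 to 1.58, with adjusted p of 0.339 to 0.999. Nppb read 245.3, 638.3 and 551.1 against 242.9, 512.1 and 280.7, with means of 478.2 ± 206 and 345.2 ± 146 (SD, n = 3) and a difference of 0.44 ± 0.46 (adjusted p = 0.886). Klotho-deficient array 1 was close to the lowest wild-type array for Nppb and not for Corin. Of the receptors and related genes, 4 of 6 were higher, 2 lower and 0 called (median 0.02). Among the 4, Npr1 was below background on every array and Furin differed by 0.00 ± 0.17. The peptidase Mme was lower (-0.85 ± 0.30, adjusted p = 0.753) without overlap, C-type natriuretic peptide Nppc differed by -0.59 ± 0.37, and the clearance receptor Npr3 by 0.40 ± 0.26.

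Energy and oxygen genes were lower in the mean with wide overlap. Ckmt2, the mitochondrial creatine kinase of muscle, read 1710.2, 3774.6 and 3082.1 against 2187.2, 5091.0 and 4330.6, a difference of -0.43 ± 0.44 (adjusted p = 0.886). Myoglobin (Mb) read 3242.5, 9992.3 and 6188.0 against 4974.3, 8203.4 and 10793.9 (-0.38 ± 0.49). Both were lowest on array 1 of each genotype. The transcription factor Nkx2-5, a defining regulator of heart muscle, stayed at 9.5 to 57.4, below background everywhere. No fold is given for it; its unadjusted p was 0.0438 (adjusted p = 0.77 in limma).

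Because the shared array-to-array pattern was wide, each gene was also set against the ventricular light chains on the same array, a choice made after the values were seen. The measure was log2 signal minus the mean of Myl2 and Myl3, with the wild-type mean at 0, for 29 genes. Tcap stood at 2.16, 0.41 and 2.01 against 0.03, -0.09 and 0.06, and Myom2 at 0.70, 0.98 and 1.09 against -0.52, 0.33 and 0.19, so both were higher without overlap. On this measure 4 genes were lower without overlap. Tnni3 stood at -0.69, -0.49 and -0.63 against -0.37, 0.04 and 0.32, and Myl7 at -0.33, -0.70 and -0.72 against -0.17, 0.19 and -0.02. Ckmt2 stood at -0.44, -0.59 and -0.30 against -0.14, 0.27 and -0.13, and Mb at -0.59, -0.25 and -0.36 against -0.02, -0.10 and 0.13. The other 23 genes overlapped, Corin, Myh7 and Nppa among them. Of 13320 genes above background, 1.58% did not overlap on this measure, but most of those genes are not heart muscle genes and need not move with the light chains, so the shares are not like for like. Against the mean of the other heart muscle genes in place of the light chains, 7 genes did not overlap, where 2.3% of genes above background did not, with the same limit on the comparison. Of the 6 genes above, 5 were the same in the same direction (Tcap, Myom2, Tnni3, Myl7 and Ckmt2).

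**Figure D4:**
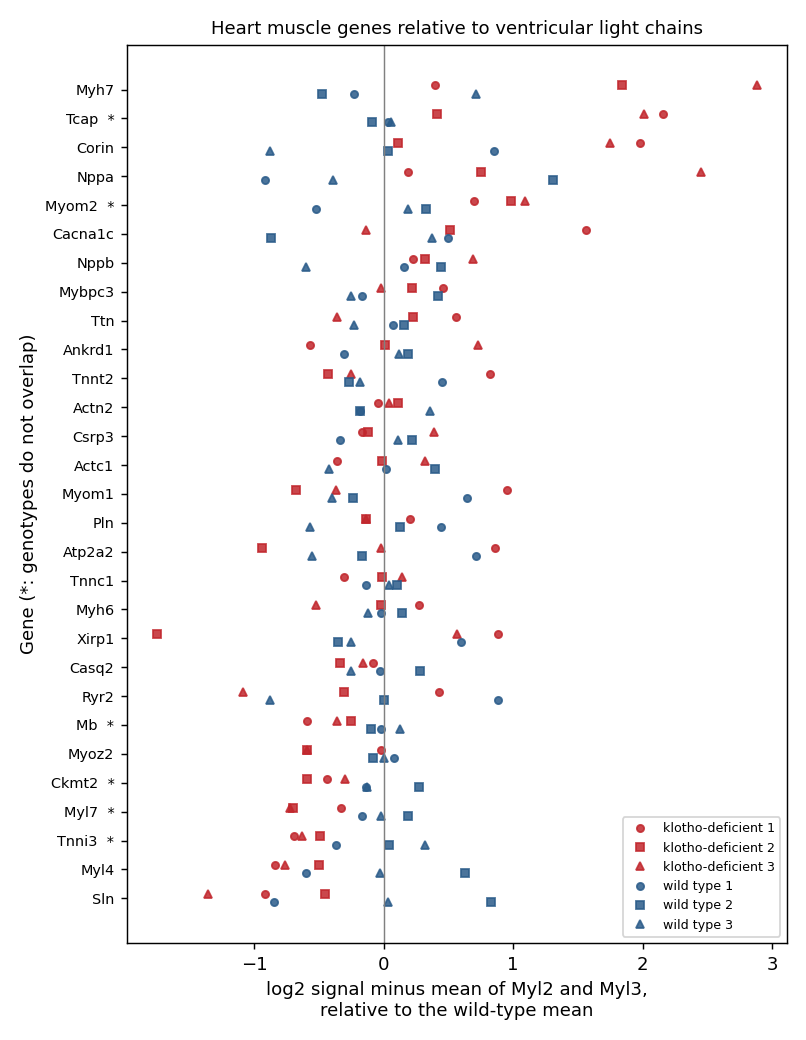
Log2 signal minus the mean of Myl2 and Myl3 on the same array, relative to the wild-type mean (horizontal axis), for 29 heart muscle genes; red is klotho-deficient, blue wild type, and circle, square and triangle are replicates 1, 2 and 3. Asterisks mark the 6 genes without overlap, of which Tcap and Myom2 lie to the right and Mb, Ckmt2, Myl7 and Tnni3 to the left.

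A list of other heart muscle genes, with none of the 35 in it, showed no called difference either. Of 52 listed, 47 were measured and 45 were above background. Of the 47, 19 were higher and 28 lower, with a median of -0.08. The genotypes did not overlap in 6, where 13.5% of all genes did not, and Kcnd2, among the 6, was below background on every array. Cox8b, a cytochrome oxidase subunit of heart, skeletal muscle and brown fat, read 977.9, 1936.2 and 969.6 against 1895.0, 2617.1 and 2841.0 (-0.98 ± 0.34, adjusted p = 0.748). Cox7a1, another muscle subunit, differed by -0.83 ± 0.47. The potassium channel subunit Kcnj11 read 1226.3, 1339.4 and 754.7 against 724.7, 730.2 and 708.0 (0.58 ± 0.26), without overlap. The coactivator Myocd, which smooth muscle also uses, read 9095.2, 6866.5 and 6579.7 against 9563.5, 10501.4 and 9857.3 (-0.42 ± 0.20), also without overlap. Kcnq1 differed by -0.56 ± 0.30 and the Z-disc protein Ldb3 by -0.40 ± 0.22. Both arrays numbered 1 were the lowest pair in 8 of the 45, and the list stood at -0.19, 0.08 and 0.00 against -0.10, 0.21 and 0.00. Of 6 measured nodal and conduction genes, 5 were higher and 1 lower, with 0 called, and only 3 had a mean above background. Isl1, a factor of cardiac progenitors and the sinus node, read 1864.2, 1839.9 and 1548.2 against 1103.4, 1174.8 and 909.7 (0.72 ± 0.19, adjusted p = 0.67), without overlap, and Tbx18 differed by 0.46 ± 0.25. Cntn2 was the lower gene (-1.59 ± 0.97), and it was above background on 1 array only.

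Skeletal muscle shares several of these genes with the heart, Tcap, Myom2 and Mb among them, so its markers are given beside them. Of 20 measured, 13 were higher and 7 lower, with a median of 0.21 and 0 called. The genotypes did not overlap in 3, where 13.5% of all genes did not. Only 11 of the 20 had a mean above background, and Myh4, among the 3 without overlap, did not. Summed over the 20, the signal was 6284.6 to 7134.5 in klotho-deficient and 6614.8 to 7706.5 in wild-type arrays. Casq1, the calcium buffer of fast muscle, carried much of that sum (-0.63 ± 0.29). Without it the sums were 4164.1, 5514.1 and 4479.3 against 3377.5, 3753.8 and 5102.3, higher in the klotho-deficient mean with overlap. Tnnt3, fast troponin T, read 345.7, 580.7 and 513.5 against 230.3, 200.8 and 334.0 (0.91 ± 0.30, adjusted p = 0.723). The fast myosins Myh2 and Myh4 were below background on every array, and Myh1 read at most 182.3. The part of skeletal muscle RNA in the values of Tcap, Myom2 or any other heart muscle gene given here, Myh7 and the light chains included, was not tested. For smooth muscle, 7 of 10 were higher (median 0.08), and the summed signal was 206227.8 to 272298.7 against 207371.2 to 234537.2. That list bears on Cacna1c, and its part there was not tested.

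The remaining markers of cells that a root can hold gave 0 called in every list. Endothelial genes were lower in 6 of 7 (median -0.39), with Tek at -0.63 ± 0.20. Mesothelial and epicardial genes were lower in 6 of 6 (median -0.67), led by Lrrn4 (-0.77 ± 0.32). In 4 of them the genotypes did not overlap, where 13.5% of all genes did not. Brown fat genes were lower in 4 of 5 (median -0.90) and white fat genes in 3 of 3 (median -0.28). Brown fat also uses Cox8b, and the part of brown fat in that value was not tested. Valve interstitial and fibroblast genes had a median of 0.01, macrophage genes 0.13 and nerve and Schwann cell genes 0.26. Thymus genes had a median of -0.57 and blood genes of 0.13. Only 2 of 4 nerve, 1 of 5 thymus and 1 of 2 blood genes were above background, so these 3 medians rest largely on genes that were not.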

How the data were processed

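The deposited tables held linear intensities of 45101 probe sets on each of 6 arrays. RMA is named in the submitters' processing notes without a version. Every array had a mean of 1500 once 2% of its values were trimmed from either end, so the authors' values had been scaled to a common mean; the sources used here do not say how RMA relates to that. RNA was amplified and labelled with NuGEN kits, per the labels' protocols. The log2 of the deposited intensities was taken with no further normalization. Of the probe sets, 34945 had 1 gene in the platform annotation, and each of 18193 genes was read by its brightest such probe set. The test was limma's moderated two-sided one (version 3.58.1, R 4.3.3), with p-values adjusted over all genes by Benjamini-Hochberg and a threshold of 0.05. It set 3 arrays against 3, which limits the precision. The model was checked on simulated data, with independent noise and changes larger than any found in the heart muscle genes. That check does not show whether smaller changes would be found.

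The heart muscle genes and the other lists were chosen with earlier results of these data known. Every measured heart muscle gene is named; from other lists, names come from the smallest unadjusted p (up to 6 for other heart muscle genes, up to 3 elsewhere), plus defining markers used as a check. Alternatives covered normalization, dim genes, an offset of 100, the variance prior, probe set choice, covariates, thresholds and arrays left out. Promoters and coordinates come from RefSeq on GRCm38.p6.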

Additional observations from a re-analysis of the deposited data

How the results depend on the processing

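No heart muscle gene was called under any setting that used an adjusted p, and the lowest adjusted p was 0.262 (Tcap with a trended and robust prior); 3 passed an unadjusted p. Over all genes, 1 was called with dim genes left out, 1 with an offset of 100, 2 with a trended and robust prior, 1 at an adjusted p under 0.10 and 0 to 1 with an array left out, where 1166 had an unadjusted p under 0.05. The labels used here give same-numbered arrays only a number in common, and whether they shared a step of the work was not tested. Over genes above background, the correlations of their deviations were 0.17, -0.01 and 0.16. With the replicate block 0 of the heart muscle genes were called and their median difference was -0.01. In that limma fit 6 of them had an unadjusted p under 0.05, where 1254 of all genes did. Genotypes did not overlap in 3 to 9 of the 33 with an array left out, where 21.2% to 29.4% of all genes did not, and in 13 with both arrays numbered 1 left out, where 31.1% of all genes did not overlap. The sign never turned for 12 of the 33 genes (Tcap, Corin, Myom2, Cacna1c, Myl4, Myl7, Sln, Tnni3, Ckmt2 and Myoz2, with Nkx2-5 and Tnni1 below background) and turned for the other 21, in 71 of 559 values in all. For Myh7, Nppa and Nppb it turned only with the Y-linked covariate, without which 58 values of 18 genes turned. Beyond the settings' own construction, the cause was not tested.

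With an array left out, the lowest and highest differences were -0.32 and 0.51 for Actc1, -0.33 and 0.43 for Actn2, -0.37 and 0.72 for Ankrd1, -0.13 and 0.12 for Atp2a2, -0.48 and 0.10 for Casq2, -0.41 and 0.49 for Csrp3, -0.76 and 0.05 for Mb, -0.14 and 0.56 for Mybpc3, and -0.42 and 0.12 for Myh6. They were -0.29 and 0.31 for Myl2, -0.31 and 0.40 for Myl3, -0.17 and 0.14 for Myom1, -0.26 and 0.21 for Pln, -0.62 and 0.06 for Ryr2, -0.41 and 0.42 for Tnnc1, -0.01 and 0.20 for Tnnt2, -0.19 and 0.40 for Ttn, and -0.44 and 0.43 for Xirp1. Without both arrays numbered 1 the difference was 0.07 for Myl2, 0.13 for Pln, 0.05 for Tnnc1 and -0.06 for Tnnt2. Quantile normalization gave 0.04 for Atp2a2, 0.03 for Myl2, 0.02 for Myom1 and 0.00021 for Pln, median centring gave -0.004 for Actc1, and the mean of probe sets gave 0.06 for Atp2a2. With other heart muscle genes as a covariate, Casq2 stood at 0.05, Myh6 at 0.11, Myl2 at 0.17, Pln at 0.14 and Tnnc1 at 0.22. The Y-linked covariate, which marks klotho-deficient arrays 2 and 3, was added after the data were seen and leaves klotho-deficient array 1 alone against wild type. It gave -1.01 for Actc1, -0.68 for Actn2, -1.21 for Ankrd1, 0.21 for Atp2a2, -0.81 for Csrp3, -0.18 for Mybpc3, -0.25 for Myh7, -0.66 for Myl3, 0.30 for Myom1, -0.45 for Nppa, -0.41 for Nppb, -0.08 for Ttn and 0.23 for Xirp1.

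Among genes above background whose sign did not turn with an array left out, Myh7 had the widest range, from 1.12 without klotho-deficient array 3 to 2.71 without klotho-deficient array 1. Nppa ran from 0.39 without wild-type array 1 to 1.95 without klotho-deficient array 1, and was 0.47 without klotho-deficient array 3 and 1.91 without wild-type array 2. The ranges were -1.61 to -0.37 for Sln, -1.27 to -0.26 for Myl4, -0.94 to -0.36 for Myl7, -1.06 to -0.21 for Tnni3, -0.79 to -0.09 for Ckmt2 and -0.64 to -0.19 for Myoz2. They were 0.39 to 1.39 for Myom2, 0.33 to 1.04 for Cacna1c, 0.17 to 0.86 for Nppb, 1.05 to 1.58 for Corin and 1.27 to 1.80 for Tcap.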

Other observations

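Genes outside the heart muscle set were ranked by the likeness of their log2 signal to the mean level of the 31 heart muscle genes above background, as Pearson r over the 6 arrays among 13291 genes. The r is a description, because the points share arrays and amplification, and with 6 points high values arise easily. The 10 closest genes were Adap1 (0.989), 9330159F19Rik (0.988), Ptrhd1 (0.986), Smpx (0.978), 1500015A07Rik (0.978), Tmem214 (0.972), Prr18 (0.968), Ephb6 (0.968), Ugdh (0.966) and Zfp202 (0.966). All 10 were lowest on the arrays numbered 1 of both genotypes, which is largely built in, since the mean they were ranked against was lowest there. Smpx, a small protein of striated muscle, read 318.0, 1033.5 and 644.9 in klotho-deficient and 253.2, 1037.9 and 814.8 in wild-type arrays. Ptrhd1 had a narrow range, 1012.8 to 1254.3, and shared the low arrays numbered 1 but not the full order of arrays. Its wild-type array 2 (1156.4) lay under array 3 of both genotypes, where in the mean of the 31 genes it lay above both.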
